A study of Rattus norvegicus with 8 samples.

Results

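The genes described here encode the enzymes and transporters of glycolysis and the best-known targets of hypoxia-inducible factor (HIF). Their list held 43 symbols for 42 genes, since Ero1a and Ero1l are the same gene. A gene was kept when at least 1 probe set of the rat array carried its symbol alone, and it was read from its probe set with the highest mean level. This left 40 of the 14217 genes named in this way. The other 2 were Gapdh, which had 3 control probe sets and 1 shared with a related gene, and Pkm, which shared its probe set with a pseudogene.

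Primary chondrocytes came from the femoral condyles of Sprague Dawley rats that were 1 day old. The upper part of the cartilage was taken, which leaves out hypertrophic cells, and all cultures were grown to confluence on plastic and held overnight without serum before treatment. TNFα cultures received DMSO for 30 minutes and then TNFα at 30 ng/ml for 24 h. U0126 + TNFα cultures received U0126, an inhibitor of the kinases MEK1/2 that activate ERK1/2, in place of DMSO before the same TNFα. U0126 cultures received U0126 and then the BSA vehicle of TNFα, and DMSO cultures, the controls, received DMSO and then BSA. The 4 treatments had 1 array each per experiment, and 2 independent experiments gave 8 arrays. The labels call the 2 arrays of a treatment biological replicates, and p values measure only the spread between these arrays. How many animals gave the cells of an experiment is not given in the sources used here.

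Values are summary intensities on a linear scale, after each array was centred on its own median. The array medians before this step lay between 365.1 and 378.2. No detection call was used, so a dim value is not known to lie above background, and levels of different genes were not set against each other. A fold is the ratio of 2 arrays of the same experiment. The cultures had high intensities of chondrocyte markers and also of fibroblast markers, which are given further on. In the order TNFα, U0126 + TNFα, U0126 and DMSO, the summed intensity of the 11 measured chondrocyte markers was 171470, 218340, 231560 and 220310 in experiment 1. It was 112900, 146340, 160890 and 145580 in experiment 2. With TNFα, 7 of these 11 chondrocyte markers fell relative to DMSO (2.12% of all named genes) and 0 rose (4.21%). The part of this in the members' values was not tested. In such bulk RNA, fewer cells of a type and less RNA per cell cannot be told apart.

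Glycolysis splits glucose into pyruvate, and lactate dehydrogenase then regenerates the NAD+ that the pathway consumes. Cartilage has no blood vessels, and its cells live at low oxygen and rely largely on this pathway for ATP. When oxygen is plentiful, prolyl hydroxylases mark the α subunits of HIF for destruction by the VHL ubiquitin ligase. When oxygen is scarce these subunits persist, pair with ARNT and bind hypoxia response elements, whose core reads ACGTG, at many genes of glucose metabolism and at the genes of some of the hydroxylases themselves.

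TNFα was first compared with DMSO, to ask what the cytokine did to these genes with MEK/ERK signalling intact. Of the 40 members, 7 rose in limma at an adjusted p under 0.05, namely Pfkl, Tpi1, Eno2, Ldha, Adm, Egln3 and Higd1a. Among all named genes, 4.21% rose. Only Ldhb among the members fell, against 2.12% of all named genes, and the other 32 did not pass. At an unadjusted p under 0.05 the numbers were 23 of 40 members and 28.0% of all named genes. The fold was above 1 in both experiments for 34 members (32.7% of all named genes), below 1 in both for 3 (37.5% of all named genes) and of opposite sign for 3. The median log2 change of the members was 0.37, against -0.01 over all named genes.

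The size of this shift differed between the experiments. The median fold of the members was 1.50 in experiment 1 and 1.11 in experiment 2, and the fold was larger in experiment 1 for 35 of the 40, against 57.1% of all named genes. In experiment 1 the TNFα array was the highest of the 4 for 36 members (30.5% of all named genes), and in experiment 2 for 25 (22.6% of all named genes). The level itself was higher in experiment 1 than in experiment 2 for 36 of 40 members with TNFα (54.5% of all named genes), for 28 with U0126 + TNFα (53.4%), for 23 with U0126 (51.7%) and for 27 with DMSO (46.6%). The ratio of the 3′ to the 5′ Gapdh control probe set, a sign of RNA integrity, lay between 1.13 and 1.17 on the arrays of experiment 1 and between 1.21 and 1.33 on those of experiment 2. The same ratio for actin overlapped between the experiments, at 1.43 to 1.57 in experiment 1 and 1.53 to 1.85 in experiment 2. Within each experiment both ratios were lower with TNFα than with DMSO. For Gapdh they were 1.13 with TNFα and 1.15 with DMSO in experiment 1, and 1.23 with TNFα and 1.33 with DMSO in experiment 2. For actin they were 1.51 with TNFα and 1.57 with DMSO in experiment 1, and 1.65 with TNFα and 1.85 with DMSO in experiment 2. The part of these ratios in the difference between experiments and in the members' folds was not tested.

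**Figure D1:**
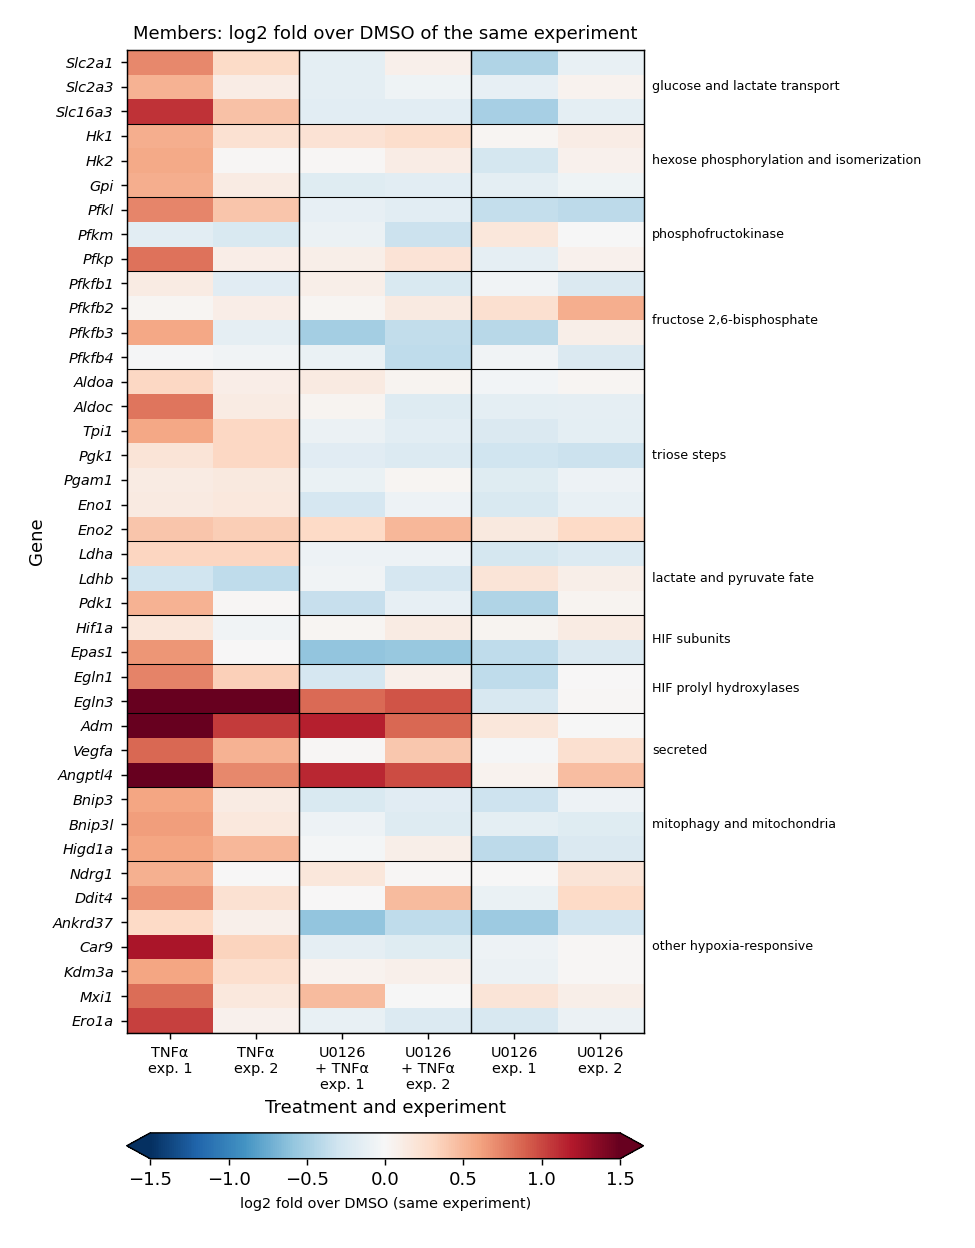
Log2 fold over DMSO of the same experiment for each of the 40 members (rows, grouped by role) with TNFα, U0126 + TNFα and U0126 (columns, experiments 1 and 2); red is above and blue below DMSO. The 2 TNFα columns are mostly red, the first more than the second, with a median fold of 1.50 and 1.11, and the Egln3, Adm and Angptl4 rows stay red with U0126 + TNFα.

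The number of calls depended on single arrays. Without the TNFα array of experiment 1 the number of members called was 2, and without that of experiment 2 it was 23. It was 1 and 2 without the DMSO array of experiments 1 and 2, and 4 without any single array of the other treatments. Egln3 passed in all 8 of these fits, Adm in 7, Pfkl and Higd1a in 5 each, Tpi1 in 1, and Eno2, Ldha and Ldhb in 0. With no term for the experiment, 0 members and 25 of all 31042 probe sets passed. A second rule, with no p value, asked for a ratio of 1.45 or more, or its inverse, in experiment 1 and again in experiment 2. Adm, Egln3 and Angptl4, 3 members, met it upwards, against 2.19% of all named genes, and 0 downwards, against 0.492%.

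**Figure D2:**
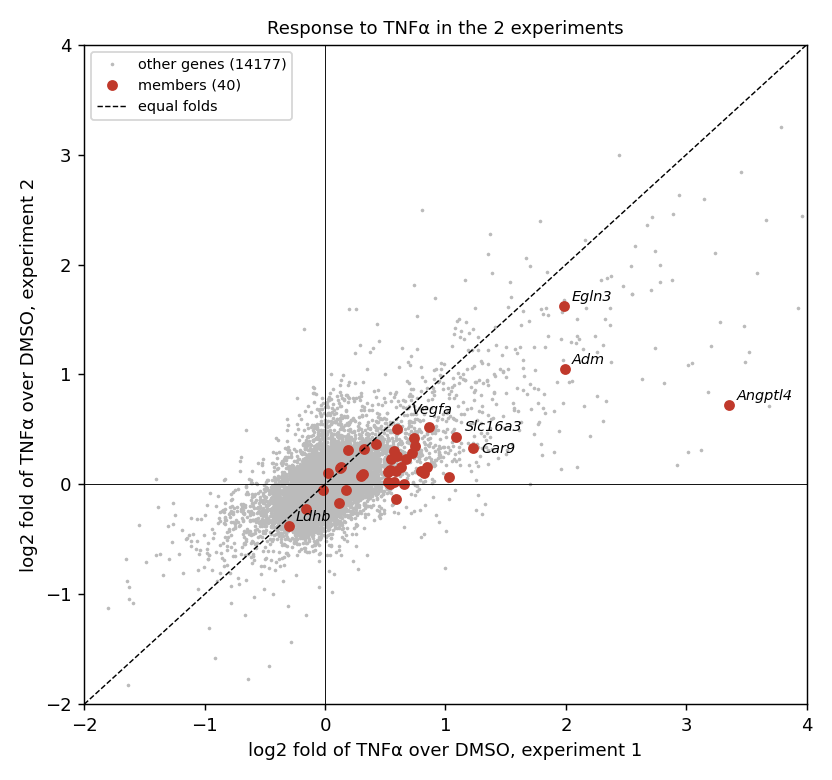
Log2 fold of TNFα over DMSO in experiment 1 (horizontal axis) and experiment 2 (vertical axis) for the 40 members (red) and the other genes (grey), with a dashed line of equal folds; 9 genes, 0 of them members, lie outside the axes. For 35 of the 40 members the fold was larger in experiment 1, and Angptl4 lies farthest below the line.

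The promoters of 4 of the 7 members that rose are shown as examples. These are the 3 with the core of the hypoxia response element and 1 of the 4 without it. Ldha, Eno2 and Higd1a rose and hold the core of the hypoxia response element, and Egln3, the member with the smallest adjusted p, does not hold it in this window. They were chosen after the values were seen. Each runs 5′ to 3′ from 250 bases before to 50 bases after a RefSeq start site in the rat build GRCr8, with ACGTG or its reverse complement CACGT in capitals. Ldha is at chr1:106507842-106508141 (+), Eno2 at chr4:159267171-159267470 (-), Higd1a at chr8:130400839-130401138 (-) and Egln3 at chr6:77410966-77411265 (-).
Ldha: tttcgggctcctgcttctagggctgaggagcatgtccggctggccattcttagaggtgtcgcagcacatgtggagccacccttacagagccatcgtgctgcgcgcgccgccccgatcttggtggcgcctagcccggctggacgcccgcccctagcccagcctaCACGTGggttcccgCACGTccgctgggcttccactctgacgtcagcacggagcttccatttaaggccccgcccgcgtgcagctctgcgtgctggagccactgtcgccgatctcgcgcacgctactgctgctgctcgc
Eno2: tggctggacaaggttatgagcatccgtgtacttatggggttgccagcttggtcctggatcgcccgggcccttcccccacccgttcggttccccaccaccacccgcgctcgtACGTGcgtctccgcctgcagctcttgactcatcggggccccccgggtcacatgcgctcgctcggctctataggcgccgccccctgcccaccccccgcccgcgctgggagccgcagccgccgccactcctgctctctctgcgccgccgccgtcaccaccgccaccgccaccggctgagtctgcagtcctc
Higd1a: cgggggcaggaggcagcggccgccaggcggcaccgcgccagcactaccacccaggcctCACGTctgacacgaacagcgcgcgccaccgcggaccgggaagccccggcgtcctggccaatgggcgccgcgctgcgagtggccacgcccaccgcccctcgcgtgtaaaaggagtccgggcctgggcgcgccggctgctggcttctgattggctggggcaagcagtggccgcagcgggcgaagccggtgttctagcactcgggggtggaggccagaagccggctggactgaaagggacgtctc
Egln3: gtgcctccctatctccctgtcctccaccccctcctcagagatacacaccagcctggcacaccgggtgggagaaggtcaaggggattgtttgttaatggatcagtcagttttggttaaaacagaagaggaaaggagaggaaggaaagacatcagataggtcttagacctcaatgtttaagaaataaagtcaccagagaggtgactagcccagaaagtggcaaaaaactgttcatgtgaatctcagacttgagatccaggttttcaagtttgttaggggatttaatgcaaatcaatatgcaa

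Ldha held 3 matches, starting at -87, -86 and -73 from the start site, of which the first pair overlaps as the palindrome CACGTG and was counted on both strands. Eno2 held 1 match at -139 and Higd1a 1 at -192. Of the 7 members that rose, these 3 held the core and the other 4, Pfkl, Tpi1, Adm and Egln3, did not. Of the 40 members, 35 had a promoter in the RefSeq table. ACGTG stood on either strand in 21 of these 35 genes, or 60%, against 25.1% of the 11700 genes on the array with a promoter of the same length. Among the members that did not pass with TNFα, 18 of the 27 with a promoter held it. Ldhb, which fell, did not. The members' promoters had a median GC content of 63.3%, against 59.7%. A kappaB form (GGGA, any base, then TTTCC) stood in 0 of the 35 (0.453% of genes on the array), and an EGR form, GCGNGGGCG, in 6 of them (17.1%, against 9.81%), namely Pdk1, Kdm3a, Eno2, Epas1, Pfkp and Egln1. The list was made of glycolysis genes and known HIF targets, so a high share with ACGTG can come from the choice of genes. It is no result about the response to TNFα. The part of GC content in these shares was not tested. These matches describe letters in a short window.

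Of the 3 carriers of glucose and lactate, 0 passed, with unadjusted p values under 0.05 for 2 (28.0% of all named genes). Slc16a3 encodes MCT4, which exports lactate and is the carrier typical of glycolytic cells. Its intensity was 4851 and 818 with TNFα, 2045 and 542 with U0126 + TNFα, 1622 and 545 with U0126, and 2287 and 605 with DMSO, in experiments 1 and 2. The TNFα array was the highest in each experiment, and the experiments lay further apart than the treatments. Its fold with TNFα over DMSO was 2.12 and 1.35, with a log2 change of 0.76 (SE 0.20, adjusted p = 0.079), which did not pass. The glucose carriers Slc2a1 and Slc2a3 had folds of 1.65 and 1.22 for Slc2a1 and of 1.44 and 1.08 for Slc2a3, and did not pass.

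None of the 3 genes of the first steps passed. Hk1, the hexokinase that phosphorylates glucose in most tissues, had 4161 and 3469.8 with TNFα, 3328 and 3566 with U0126 + TNFα, 2901 and 3207 with U0126, and 2854 and 2962 with DMSO. Both TNFα arrays lay above both DMSO arrays. The folds were 1.46 and 1.17, and the log2 change of 0.39 had an adjusted p of 0.0808 (SE 0.10). A dimmer probe set of Hk1 had folds of 1.09 and 0.945. Hk2, the inducible hexokinase, had folds of 1.48 and 1.01, and Gpi, which isomerizes glucose 6-phosphate, of 1.46 and 1.09.

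Phosphofructokinase is the main control point of the pathway, and of its 3 subunit genes Pfkl, the liver-type subunit, rose. Pfkl had 3902 and 2358 with TNFα, 2143 and 1576 with U0126 + TNFα, 1834.5 and 1344 with U0126, and 2341 and 1762 with DMSO. The TNFα array was the highest in each experiment and the U0126 array the lowest. Its folds with TNFα over DMSO were 1.67 and 1.34, with a log2 change of 0.58 (SE 0.09, adjusted p = 0.0183). The muscle-type Pfkm stood at 0.897 and 0.855 of DMSO and the platelet-type Pfkp at 1.76 and 1.07, and neither passed.

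The 4 Pfkfb genes make and break fructose 2,6-bisphosphate, an activator of phosphofructokinase, and none passed. In this group Pfkfb3, the isoform with the highest kinase over phosphatase activity, had the largest change, and its experiments disagreed. It had 1845 and 684 with TNFα, 864 and 583 with U0126 + TNFα, 919.6 and 797 with U0126, and 1229.8 and 751 with DMSO. TNFα was above DMSO in experiment 1 (1.50-fold) and below it in experiment 2 (0.911-fold). Pfkfb1, Pfkfb2 and Pfkfb4 lay between 0.892 and 1.09 of DMSO in both experiments.

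Of the 7 genes measured from aldolase to enolase, all were above DMSO in both experiments with TNFα (32.7% of all named genes). Tpi1 and Eno2 rose (4.21% of all named genes). Tpi1, which interconverts the pair of triose phosphates, had 13216 and 8323 with TNFα, 8352 and 6047 with U0126 + TNFα, 7620.5 and 6108 with U0126, and 8865 and 6738 with DMSO. Only the TNFα arrays exceeded DMSO of their experiment, by 1.49-fold and 1.24-fold (log2 change 0.44, SE 0.09, adjusted p = 0.0434). Eno2, the enolase first known from neurons, had 6877 and 4262 with TNFα, 6299 and 4659 with U0126 + TNFα, 5674 and 4053.5 with U0126, and 5138 and 3302 with DMSO. Here every other treatment was above DMSO in both experiments, and TNFα by 1.34-fold and 1.29-fold (log2 change 0.39, SE 0.08, adjusted p = 0.0433).

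Aldoc, the aldolase of brain, had the largest change of this group. It had 2197 and 933 with TNFα, 1302.5 and 751 with U0126 + TNFα, 1139 and 785 with U0126, and 1262 and 860.2 with DMSO. Its experiments differed, with folds of 1.74 and 1.08 and an adjusted p of 0.14. Aldoa, Pgam1 and Eno1 had folds between 1.07 and 1.24. Pgk1, the first enzyme of the pathway to yield ATP, had folds of 1.14 and 1.24 (adjusted p = 0.0788). A dimmer probe set of Pgk1, not the one used for the counts, rose with folds of 1.47 and 1.40 (adjusted p = 0.0162).

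The 2 lactate dehydrogenase genes moved in opposite directions. Ldha encodes the subunit that favours turning pyruvate into lactate, and Ldhb the subunit that favours the reverse. Ldha had 19722 and 13788 with TNFα, 15018 and 10422 with U0126 + TNFα, 13125 and 9556 with U0126, and 15804 and 11014 with DMSO. Its fold was 1.25 in each experiment, the closest match between experiments among the genes that rose, with a log2 change of 0.32 (SE 0.06, adjusted p = 0.0327). Ldhb had 931 and 1853 with TNFα, 1102.5 and 2020.4 with U0126 + TNFα, 1309.5 and 2555.5 with U0126, and 1147 and 2408 with DMSO. The TNFα array was the lowest of its experiment both times, at 0.812 and 0.769 of DMSO (log2 change -0.34, SE 0.07, adjusted p = 0.0427). With every treatment its level was higher in experiment 2. Pdk1, a kinase that keeps pyruvate out of the mitochondrial cycle, had folds of 1.44 and 1.01.

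Over the 15 enzymes from hexokinase to lactate dehydrogenase, 4 rose (4.21% of all named genes), 1 fell (2.12%) and 10 did not pass. Their median log2 change was 0.32. By the rule of 1.45-fold in both experiments 0 of the 15 were counted, against 2.19% of all named genes upwards and 0.492% downwards.

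**Figure D3:**
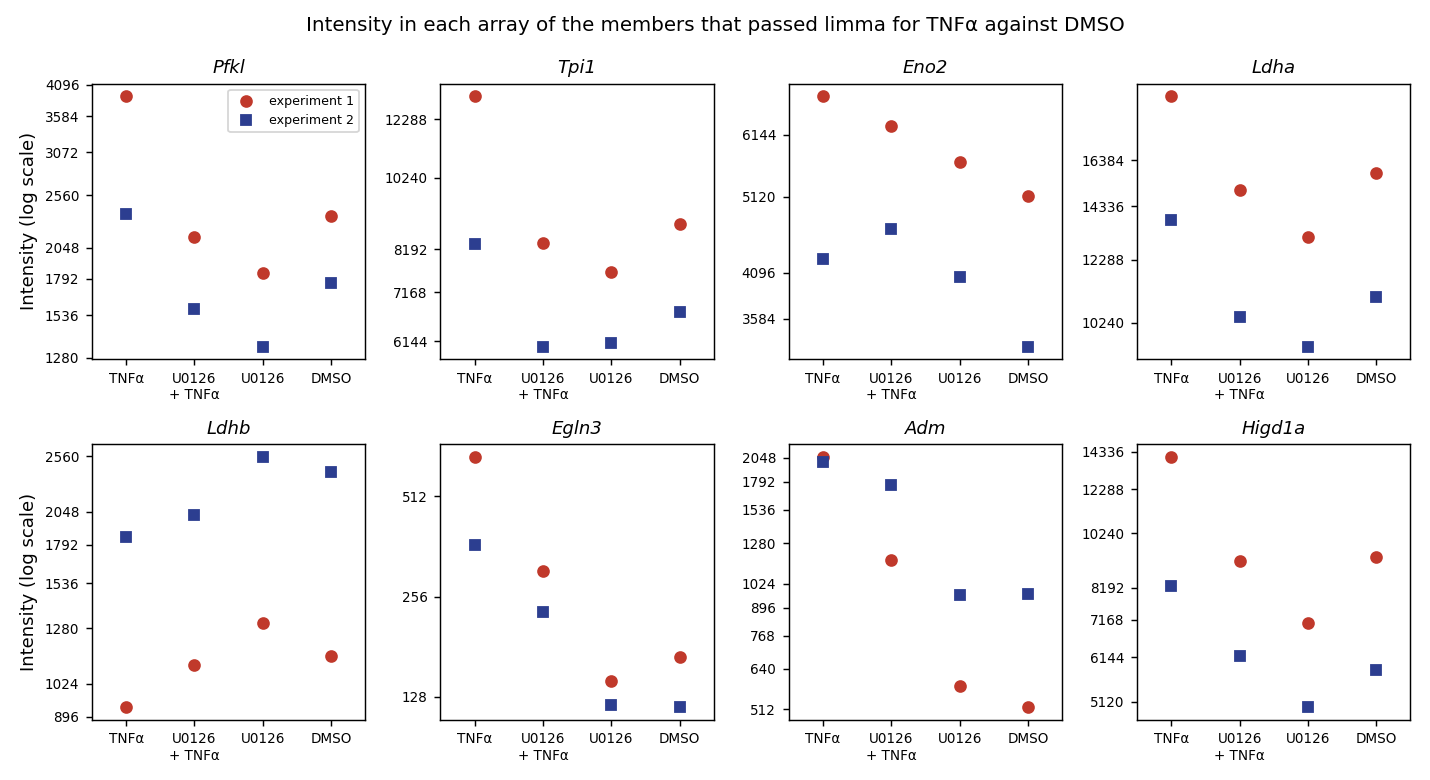
Intensity (vertical axis, log scale, a scale of its own in each panel) of the 8 members that passed limma for TNFα against DMSO, on each of the 8 arrays; red circles are experiment 1 and blue squares experiment 2. Egln3 had 671 and 366 with TNFα and 169 and 119 with DMSO, Ldhb is lowest with TNFα, and for Tpi1 and Ldha the U0126 + TNFα points lie below those of DMSO.

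The genes of the oxygen-sensing machinery did not move together. Hif1a, the α subunit whose abundance is set mainly by protein breakdown, had folds of 1.13 and 0.967 (log2 change 0.06, SE 0.09, adjusted p = 0.686). Epas1, which encodes HIF-2α, had 3345 and 1933.1 with TNFα, 1406 and 1304 with U0126 + TNFα, 1632.5 and 1663 with U0126, and 2118 and 1932.7 with DMSO. TNFα exceeded DMSO in experiment 1 by 1.58-fold and equalled it in experiment 2 (1.00-fold, adjusted p = 0.287). On its dimmer probe set, Epas1 had folds of 1.26 and 0.950.

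Egln3, the prolyl hydroxylase PHD3 and itself a HIF target, had the smallest adjusted p of all members. It had 671 and 366 with TNFα, 305 and 230.0 with U0126 + TNFα, 143 and 121 with U0126, and 169 and 119 with DMSO. In both experiments the order was TNFα, then U0126 + TNFα, then the 2 treatments without TNFα, and no array with TNFα overlapped one without it. TNFα over DMSO was 3.97-fold and 3.07-fold (log2 change 1.80, SE 0.14, adjusted p = 0.00154). Egln3 and Slc2a3 were the only members among the dimmest 40% of probe sets. Egln1, the hydroxylase PHD2 that acts most widely on HIF, had folds of 1.67 and 1.28 and an adjusted p of 0.118. A dimmer probe set of Egln1 had folds of 0.954 and 1.04.

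Of the 3 secreted products, Adm rose, and all were above DMSO in both experiments (32.7% of all named genes). Adm, the vasodilator adrenomedullin, had 2057 and 1998 with TNFα, 1163.5 and 1760.5 with U0126 + TNFα, 583 and 962 with U0126, and 518 and 967 with DMSO. The 2 TNFα arrays lay close together, while the DMSO arrays did not, so that the fold was 3.97 in experiment 1 and 2.07 in experiment 2 (log2 change 1.52, SE 0.20, adjusted p = 0.0106). Angptl4, an inhibitor of lipoprotein lipase, had 4006.5 and 1326 with TNFα, 859 and 1581 with U0126 + TNFα, 405 and 1107 with U0126, and 391 and 805 with DMSO. It had the largest fold of any member in 1 experiment, 10.2 in experiment 1, against 1.65 in experiment 2. With this spread its log2 change of 2.04 (SE 0.65) had an adjusted p of 0.113. Vegfa, the angiogenic growth factor, had folds of 1.82 and 1.44 (adjusted p = 0.0571), and its dimmer second probe set of 1.98 and 1.63 (adjusted p = 0.102). The study listed Vegfa, from these same arrays, among the genes that TNFα regulates independently of MEK/ERK. Its value here is therefore no independent support. With U0126 + TNFα over U0126 the folds of Vegfa were 1.03 and 1.12 (adjusted p = 0.859). Those of its second probe set were 1.10 and 1.50 (adjusted p = 0.626). Which probe set the study read is not given in the sources used here.

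Higd1a, a small mitochondrial protein induced by hypoxia, rose. It had 14037 and 8248 with TNFα, 9125 and 6178 with U0126 + TNFα, 7066 and 5002 with U0126, and 9288 and 5832 with DMSO. The TNFα array was the highest and the U0126 array the lowest of each experiment, and the folds with TNFα were 1.51 and 1.41 (log2 change 0.55, SE 0.08, adjusted p = 0.0149). A dimmer probe set of Higd1a had folds of 1.65 and 1.45 and did not pass (adjusted p = 0.105). Bnip3 and Bnip3l, receptors for the removal of mitochondria, had folds of 1.50 and 1.09 for Bnip3 and of 1.55 and 1.12 for Bnip3l, and did not pass.

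The other 7 hypoxia-responsive genes were above DMSO in both experiments (32.7% of all named genes), and 0 passed. Car9, the cell-surface carbonic anhydrase that handles acid at low oxygen, had 4935.5 and 1229 with TNFα, 1925 and 864 with U0126 + TNFα, 2006.5 and 992 with U0126, and 2112 and 977 with DMSO. Its folds were 2.34 and 1.26 (log2 change 0.78, SE 0.22, adjusted p = 0.092). In experiment 1 the TNFα array stood far above the other 3, and in experiment 2 it did so by less. Ero1a, an oxidase of disulphide bonds, had folds of 2.04 and 1.04, and Mxi1, an antagonist of MYC, of 1.79 and 1.12. Ddit4, an inhibitor of mTORC1, Kdm3a, a histone demethylase, Ndrg1 and Ankrd37 had folds between 1.23 and 1.59 in experiment 1 and between 1.00 and 1.19 in experiment 2.

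The response to TNFα was then read with MEK1/2 inhibited, by U0126 + TNFα against U0126. Its folds come from arrays that the folds of the first comparison did not use. The p values are not independent of that comparison, since all 8 arrays share 1 fit and 1 estimate of the spread. Egln3 rose (2.14-fold and 1.90-fold, log2 change 1.01, SE 0.14, adjusted p = 0.0247) and was the only member to pass, against 1.17% of all named genes that rose and 0.513% that fell. At an unadjusted p under 0.05, 8 members were counted, against 13.8% of all named genes. Adm and Egln3 met the rule of 1.45-fold upwards in both experiments (1.21% of all named genes), and 0 members met it downwards (0.366%). Adm had folds of 2.00 and 1.83 and an adjusted p of 0.0994. Without U0126 + TNFα, U0126 or DMSO arrays, 1 at a time, 0 members passed, and without either TNFα array 3 did. With no term for the experiment the number was 0.

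Most other members stood close to U0126 alone. The fold was above 1 in both experiments for 18 members (30.2% of all named genes), below 1 in both for 10 (34.9%) and of opposite sign for 12, with a median log2 change of 0.08. Without the U0126 array of experiment 1 this median was -0.05. Of the 7 members that had risen with TNFα alone, the log2 change with U0126 present was 61.6% of that without it for Adm, 61.5% for Higd1a, 56.1% for Egln3, 49.6% for Ldha, 44.6% for Eno2, 39.2% for Pfkl and 13.4% for Tpi1. These shares carry no error of their own, and the genes were picked by the response without U0126, which by itself favours lower shares. Ldhb had folds of 0.842 and 0.791 (adjusted p = 0.129), and Angptl4 of 2.12 and 1.43 (adjusted p = 0.68). Slc16a3 had folds of 1.26 and 0.995, and Car9 of 0.959 and 0.871.

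The difference between the responses with and without U0126 was tested as an interaction in limma. It passed for 0 of the 40 members and for 0% of all named genes. At an unadjusted p under 0.05 it was counted for 7 members, against 8.46% of all named genes. The smallest unadjusted p, 0.00498, was that of Egln3 (log2 difference -0.79, SE 0.20, adjusted p = 0.499), whose response with U0126 was 0.539 and 0.619 of that without it. In both experiments 35 of the 40 members had the smaller fold with U0126, against 35.1% of all named genes, and the median log2 difference was -0.31. The interaction subtracts the first comparison, on the same TNFα and DMSO arrays. A high TNFα array therefore raises the first and lowers the second, and these counts are not separate from those of the first comparison.

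**Figure D4:**
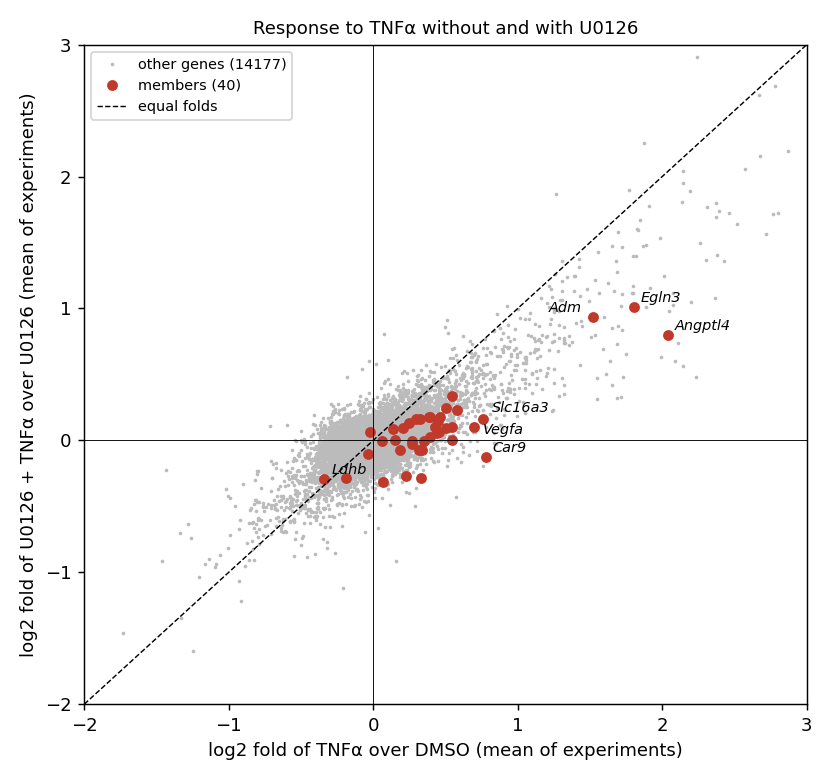
Log2 fold of TNFα over DMSO (horizontal axis) and of U0126 + TNFα over U0126 (vertical axis), each the mean of 2 experiments, for the 40 members (red) and the other genes (grey), with a dashed line of equal folds; 12 genes, 0 of them members, lie outside the axes. Most members lie to the right of 0 and below the line, with a median of 0.37 on the horizontal and 0.08 on the vertical axis.

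U0126 + TNFα was also set against TNFα, a comparison that shares the TNFα arrays with the first one. Pfkl fell, to 0.549 and 0.668 of TNFα (log2 change -0.72, SE 0.09, adjusted p = 0.0467), and was the only member to pass. Among all named genes 0.183% fell and 0.183% rose. At an unadjusted p under 0.05, 27 members were counted, against 13.7% of all named genes. By the rule of 1.45-fold in both experiments 4 members were lower, Pfkl, Slc16a3, Egln3 and Epas1, against 0.710% of all named genes, and 0 were higher, against 0.295%. Slc16a3 was at 0.422 and 0.662 of TNFα (adjusted p = 0.142), Egln3 at 0.455 and 0.628 (adjusted p = 0.0695) and Epas1 at 0.42 and 0.675 (adjusted p = 0.112). On its dimmer probe set, Epas1 stood at 0.688 and 1.01 of TNFα (adjusted p = 0.443), so it did not meet the rule there.

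Tpi1, Ldha and Higd1a stood at 0.632 and 0.727, at 0.761 and 0.756 and at 0.65 and 0.749 of TNFα, with adjusted p values of 0.0756, 0.0695 and 0.0701. Eno2 stood at 0.916 and 1.09. In all, 29 members were lower in both experiments (30.5% of all named genes) and 2 higher in both (33.0%), and the median log2 change was -0.46. All 11 measured chondrocyte markers were higher with U0126 + TNFα than with TNFα in both experiments (33.0% of all named genes). Of these, 2 rose, Acan (adjusted p = 0.0215) and Cnmd (adjusted p = 0.0331), against 0.183% of all named genes. An unadjusted p under 0.05 was found for 10 of the 11, against 13.7% of all named genes. The part of these marker changes in the members' values was not tested. Without the TNFα array of experiment 2, 21 members passed, Pfkl among them, and without any other single array 0 did. With no term for the experiment 0 passed. The second probe set of Pgk1 also fell, to 0.602 and 0.662 of TNFα (adjusted p = 0.0397).

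U0126 alone was compared with DMSO, which shares the DMSO arrays with the first comparison. In limma 0 members passed, against 0.0914% of all named genes that rose and 0% that fell, and 8 had an unadjusted p under 0.05, against 13.5% of all named genes. The rule of 1.45-fold in both experiments was met by 0 members, against 0.239% of all named genes upwards and 0.176% downwards. The fold was below 1 in both experiments for 18 members (30.3% of all named genes) and above 1 in both for 7 (34.6%), with a median log2 change of -0.12, which was 0.07 without the U0126 array of experiment 1. Pfkl stood at 0.784 and 0.763 of DMSO (adjusted p = 0.246), Ldha at 0.83 and 0.868 (adjusted p = 0.259) and Pgk1 at 0.811 and 0.799 (adjusted p = 0.228). Pfkfb2, the isoform known from heart, stood at 1.19 and 1.46 (adjusted p = 0.225). Its dimmer probe sets differed, at 0.925 and 0.970, at 1.04 and 0.793, and at 1.16 and 1.21.

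Other genes of the same pathways, outside the list of members, were read in the same fits. Of 13 further isoforms and carriers of glycolysis, Slc16a7, the carrier MCT2, rose with TNFα. It had 1763 and 941 with TNFα, 1023 and 596 with U0126 + TNFα, 485 and 378 with U0126, and 488 and 323 with DMSO, with a log2 change of 1.70 against DMSO (adjusted p = 0.00144) and of 0.87 with U0126 + TNFα against U0126 (adjusted p = 0.029). Eno3, Pklr and Slc2a4, known from muscle, liver and fat, fell with TNFα (log2 changes -0.82, -0.39 and -0.41). Of 12 measured genes of the HIF machinery, Cited2, which competes with HIF for the coactivators p300 and CBP, rose (2.19-fold and 1.56-fold, adjusted p = 0.0155), and of 33 other hypoxia-induced genes Edn1, Igfbp3 and Mif, 3 genes, rose and 0 fell. Among all named genes 4.21% rose and 2.12% fell. At an unadjusted p under 0.05 the counts were 18 of the 33 hypoxia-induced genes, 7 of the 13 further glycolysis genes and 2 of the 12 of the HIF machinery, against 28.0% of all named genes. The pentose phosphate (6 genes), glycogen (7) and pyruvate dehydrogenase (11) lists had 0 calls with TNFα by limma, with 1, 4 and 4 genes at an unadjusted p under 0.05.

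Markers of other cell types were read beside the members. Of 9 macrophage markers 1 rose with TNFα, Cd68, and their summed intensity was 3746 and 4510.1 with TNFα, 2885 and 3597.5 with U0126 + TNFα, 2960.3 and 3605 with U0126, and 2981 and 4203 with DMSO. Of 6 fibroblast markers Pdgfra rose and 5 did not pass. Their summed intensity was 97973 and 119620 with TNFα and 96302 and 123700 with U0126 + TNFα. It was 92867 and 119570 with U0126 and 91641 and 117230 with DMSO. Among all named genes 4.21% rose and 2.12% fell with TNFα. The 6 endothelial, 3 osteoblast and 2 erythroid markers measured had 0 calls by limma with TNFα. Their counts at an unadjusted p under 0.05 were 3, 2 and 1, against 28.0% of all named genes. The part of these genes in the members' values was not tested. The Gapdh control probe set nearest the 3′ end, left out of the fit, had 23217 and 18785 with TNFα, 18687 and 17882 with U0126 + TNFα, 18515 and 17220 with U0126, and 20145 and 17838 with DMSO.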

How the data were processed

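The deposited table holds a summary intensity, on a linear scale, for every probe set on every array, which the authors made from Affymetrix RAT230_2.0 scans of total RNA. The submitters' processing notes name RMA, with no version. The division by the chip median and by DMSO that the methods describe is not present in the values, so log2 values were centred on each array's median. Probe sets were named from the platform annotation of 2016, and 57 control probe sets were left out. Of the rest, 20826 carried 1 symbol, 436 several and 9780 none. All 40 members matched the RefSeq gene table by Entrez identifier. All columns per sample were used.

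The model (limma 3.58.1, R 4.3.3) took all 8 arrays and 31042 probe sets, with terms for treatment and experiment, empirical Bayes moderation (3 residual and 3.91 prior degrees of freedom) and Benjamini-Hochberg adjustment over all probe sets within a comparison. The replicate number was used as the experiment because the methods set each array against DMSO of its own experiment. Deviations of same-numbered arrays correlated at 0.728 to 0.829. The 1.45-fold rule has no p value. Scripts were tested on simulated data. Arrays give no count of depth, and their number limits the precision.

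Members and lists were chosen with earlier results of these data known. Values on every array are given for members that passed limma or the fold rule in any comparison and for the largest TNFα change in each role group, and other members by range. Alternatives were quantile normalization, no centring, 50 added to every intensity, the lowest 40% of probe sets left out, a trended or robust prior variance, no experiment term, only the arrays compared, each array left out, other choices of probe set and fold thresholds of 1.3 and 2.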

Additional observations from a re-analysis of the deposited data

How the results depend on the processing

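In every alternative that left out no single array, the members' median log2 change kept its sign in each of the 5 comparisons. Counts of calls did not. With no replicate block (no term for the experiment), 0 members passed for TNFα against DMSO, 0 for U0126 + TNFα against U0126 and 0 for U0126 + TNFα against TNFα, in place of 8, 1 and 1. With only the arrays compared, these counts were 1, 3 and 3. For U0126 + TNFα against U0126, 0 passed with 50 added to every intensity, and 0 with the lowest 40% of probe sets left out, which removes Egln3 and Slc2a3. For U0126 + TNFα against TNFα, 0 passed with 50 added, 4 with a trended prior variance, 3 with the median over a gene's probe sets and 2 when any probe set of the gene counted.

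By the fold rule, 7 members were counted for TNFα against DMSO at 1.3-fold and 10 with the mean of both experiments, in place of 3. For U0126 + TNFα against TNFα the counts were 9 at 1.3-fold, 0 at 2-fold and 13 with the mean, in place of 4, and for U0126 + TNFα against U0126 the count was 0 at 2-fold, in place of 2.

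Leaving out each array in turn gave 1 to 23 calls for TNFα against DMSO, 0 to 3 for U0126 + TNFα against U0126, 0 to 21 for U0126 + TNFα against TNFα, and 0 for U0126 against DMSO and for the interaction. The median log2 change ranged from 0.11 to 0.63 for TNFα against DMSO, from -0.053 to 0.20 for U0126 + TNFα against U0126, from -0.68 to -0.20 for U0126 + TNFα against TNFα, from -0.23 to 0.070 for U0126 against DMSO and from -0.56 to -0.12 for the interaction. The 2 medians that changed sign, -0.053 and 0.070, came without the U0126 array of experiment 1. The fold rule on 1 experiment alone counted 3 to 24, 2 to 3, 4 to 25 and 1 to 1 members in the first 4 comparisons in that order. The log2 change of Pfkfb3 with TNFα ranged from -0.24 to 0.69 and that of Epas1 from -0.030 to 0.69 over these fits, lowest without the TNFα array of experiment 1, and that of Pfkfb3 was -0.19 with the median over its probe sets. Tpi1 and Eno2 lost their call with quantile normalization. The causes were not tested, apart from the 2 genes removed by the filter. No detection calls were used, so how far dim probe sets such as that of Egln3 lie above background is not known.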
